A study of Mus musculus with 2 samples.

Results

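Guanylate-binding proteins (GBPs) and immunity-related GTPases (IRGs) are large GTPases that interferons switch on in many cell types. The genes described here are Gbp2, Gbp2b, Gbp3, Gbp4, Gbp5 and Gbp7 of the first family, Igtp, Irgm1 and Iigp1 of the second, and Irf1, a transcription factor of the interferon gamma response. They are 10 of the 27998 genes in the count tables, and each had a row of its own. The 10 genes were selected on family membership and on UMI levels by cell class and library already seen in these data, so their levels and ratios are given as a description.

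In mouse macrophages, interferon gamma and type I interferon signal through separate receptors, and IRF1 is among the factors that carry the response. Both routes induce GBPs and IRGs, which assemble on membranes around bacteria and parasites, disrupt them and help to activate inflammasomes. In tumors the same genes serve as a readout of interferon exposure of the infiltrating leukocytes.

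CD45+ leukocytes came from subcutaneous Lewis lung carcinoma (LLC) tumors, grown for 14 days from a mouse lung carcinoma line in C57/BL6 mice that were 10 weeks old. Control mice carried loxP-flanked miR-21 alleles (miR-21 fl/fl). LysMCre;miR-21 fl/fl mice carry the same alleles together with Cre recombinase under the lysozyme M (Lyz2) promoter, which is active in monocytes, macrophages and granulocytes and variably in dendritic cells. Each genotype is 1 droplet library of 3 pooled mice, sequenced from the 3′ end of the transcripts. The library titles (wt and cko) and the text on the cell source assign the genotypes in opposite ways, so the groups are named by title alone, as labelled wt or labelled cko. Lyz2, into which Cre is inserted, was at 20280 CPM in monocytes and macrophages labelled wt and 9503 CPM in those labelled cko. A growth note names a macrophage gate (CD11b+, MHCII+, F4/80+), but T and NK cells were found in both libraries.

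Every value below is a sum of UMIs (unique molecular identifiers, each a distinct captured molecule) over the cells of a gate, scaled to 1000000 UMIs of that gate (CPM). Each molecule gives 1 tag at its 3′ end, so levels of different genes were not divided by length. Ratios are log2 of cko over wt. Their 95% intervals, and those of the levels, cover counting error only. With 1 library per genotype there is no replicate, no test and no p-value, and a difference between genotypes cannot be told apart from a difference between 2 pools of mice.

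The cells kept numbered 2397 (labelled wt) and 2645 (labelled cko), and the deposited cells had medians of 8359 and 8247 UMIs. Cells were gated on marker UMIs. The monocyte gate (Ly6c2 at 3 UMIs or more, C1q genes under 10) held 485 and 474 cells, the transitional gate (both high) 182 and 143, the macrophage gate (C1q genes at 10 or more, Ly6c2 low) 497 and 694, and the nonclassical gate (Ace, Treml4, Spn or Eno3) 237 and 241. With 333 and 339 further cells that met none of these cuts they form the monocyte/macrophage gate of 1734 and 1891 cells. The dendritic gate held 46 and 66 cells, the T gate 135 and 167, the NK gate 46 and 44, and the granulocytic gate 20 and 53. Of check markers that no gate used, all 6 of the macrophage list were highest in the macrophage gate labelled wt and 5 of 6 in that labelled cko, and 4 of 6 of the monocyte list in the monocyte gate of each library. The nonclassical gate was weaker, with 2 of 4. The T, NK and granulocytic gates were revised after the check. As first set, 63.5% and 56.9% of the cells in the NK gate and 76.6% and 65.6% of those in the granulocytic gate held 3 or more monocyte/macrophage marker UMIs, and 2 and 3 of the 4 NK list genes were highest in the NK gate. The revised NK gate had 4 of 4 and the revised T gate 3 of 4 in each library, against 4 of 4 for the T gate as first set, and since the gates were changed in view of these markers the revised counts are no check of them. The dendritic gate then grew from 22 and 44 cells, as Klrk1, Csf3r and Mmp9 UMIs no longer counted towards another lineage. Of its check markers, 4 of 5 were highest there in each library, against 5 of 5 as first set.

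Several of the genes lie in a cluster. Gbp5, Gbp7, Gbp3, Gbp2b and Gbp2 follow each other on the plus strand of chromosome 3 in GRCm38, the build that mm10 names. Gbp2b (ENSMUSG00000040264, chr3:142594847-142619179) and Gbp2 (ENSMUSG00000028270, chr3:142620602-142638008) are direct neighbours there. Gbp4 is on chromosome 5, and Igtp, Irgm1 and Irf1 are on chromosome 11.

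RefSeq promoter windows (GRCm38.p6, 250 bases before to 50 after a start) were at hand for 8 of the 10 genes, all but Gbp4 and Iigp1. They were searched on both strands for the letters GAAANNGAAA, the core of the interferon-stimulated response element (ISRE) that IRF proteins bind, and TTCNNNGAA, the gamma-activated site (GAS) of interferon gamma target genes. The ISRE letters were in windows of 7 of the 8 genes, all but Irf1, against 3.99% of all 27025 genes (3.44% of 32851 windows). The GAS letters were in windows of 4 of the 8 (Gbp5, Gbp7, Igtp and Irf1), against 9.55% of all genes (8.3% of windows). A match of letters is a description and no proof of a bound site. Positions are counted from the RefSeq start. The gene models given above start elsewhere for some genes, 61 bases earlier for Gbp2, 263 bases earlier for Irgm1 and 2956 bases earlier for Gbp5, so that the matches of these 3 genes lie inside the gene model. The stretches before the RefSeq starts of Gbp2b and Gbp2 are shown because these 2 neighbours differed most in the values below, with the ISRE match in capitals. That of Gbp2b covers all 250 bases before the start. That of Gbp2 covers 211 bases, ends 10 bases after the match and runs into the gene model.
Gbp2b, chr3:142594597-142594846, plus strand: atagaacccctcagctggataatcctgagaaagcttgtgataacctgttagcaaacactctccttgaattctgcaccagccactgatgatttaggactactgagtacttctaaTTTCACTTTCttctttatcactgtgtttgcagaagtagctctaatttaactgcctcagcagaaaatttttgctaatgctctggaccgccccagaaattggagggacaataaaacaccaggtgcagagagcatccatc
Gbp2, chr3:142620413-142620623, plus strand: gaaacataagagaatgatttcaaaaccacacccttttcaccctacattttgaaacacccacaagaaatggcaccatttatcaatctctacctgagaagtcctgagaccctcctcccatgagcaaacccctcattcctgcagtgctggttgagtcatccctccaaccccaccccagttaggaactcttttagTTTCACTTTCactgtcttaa
Both hold the same ISRE letters, 137 to 128 bases before the Gbp2b start and 59 to 50 bases before the RefSeq start of Gbp2. Neither window held a GAS match.

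Short windows around every ISRE match of the other genes, and around the GAS matches of Igtp and Irf1, are shown to set the variants of these elements side by side, with 1 match in capitals in each line. Gbp3 and Irgm1 each hold 2 ISRE matches that overlap by 4 bases.
Gbp3 ISRE, chr3:142559989-142560018, plus strand: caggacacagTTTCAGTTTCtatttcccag
Gbp3 second ISRE, chr3:142559995-142560024, plus strand: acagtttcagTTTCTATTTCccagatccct
Gbp5 ISRE, chr3:142496759-142496788, plus strand: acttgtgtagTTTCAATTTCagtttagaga
Gbp7 ISRE, chr3:142530273-142530302, plus strand: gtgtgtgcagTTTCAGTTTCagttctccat
Igtp ISRE, chr11:58199512-58199541, plus strand: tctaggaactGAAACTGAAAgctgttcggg
Irgm1 ISRE, chr11:48871425-48871454, minus strand: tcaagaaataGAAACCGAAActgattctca
Irgm1 second ISRE, chr11:48871431-48871460, minus strand: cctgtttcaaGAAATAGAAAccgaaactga
Igtp GAS, chr11:58199501-58199529, plus strand: aactagccatTTCTAGGAActgaaactga
Irf1 GAS, chr11:53769914-53769942, plus strand: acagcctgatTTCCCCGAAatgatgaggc
The Gbp7 match and the first Gbp3 match have the same 10 letters, and Igtp holds them on the opposite strand. In Igtp 2 bases lie between the GAS match and the ISRE match, and the printed windows overlap.

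Gbp2b was higher in the library labelled cko throughout the monocyte and macrophage gates, while the other 9 genes stayed within 1.5-fold in both directions there. In the monocyte/macrophage gate, Gbp2b, the mouse gene long called Gbp1, stood at 39.4 CPM labelled wt, on 668 UMIs, and at 111 CPM labelled cko, on 2038 UMIs. This is a log2 ratio of 1.49 with an interval from 1.37 to 1.62, or 2.82-fold. Of 10288 genes with at least 50 UMIs in this gate, 429 (4.17%) were past 1.5-fold in either direction, with 3.13% higher labelled cko and 1.04% lower. Of the 10 genes described here, Gbp2b alone was past 1.5-fold. Its ratio was reached by 19 genes including itself (0.185% of those measured), and by 4 of the 5843 genes with at least 500 UMIs.

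**Figure D1:**
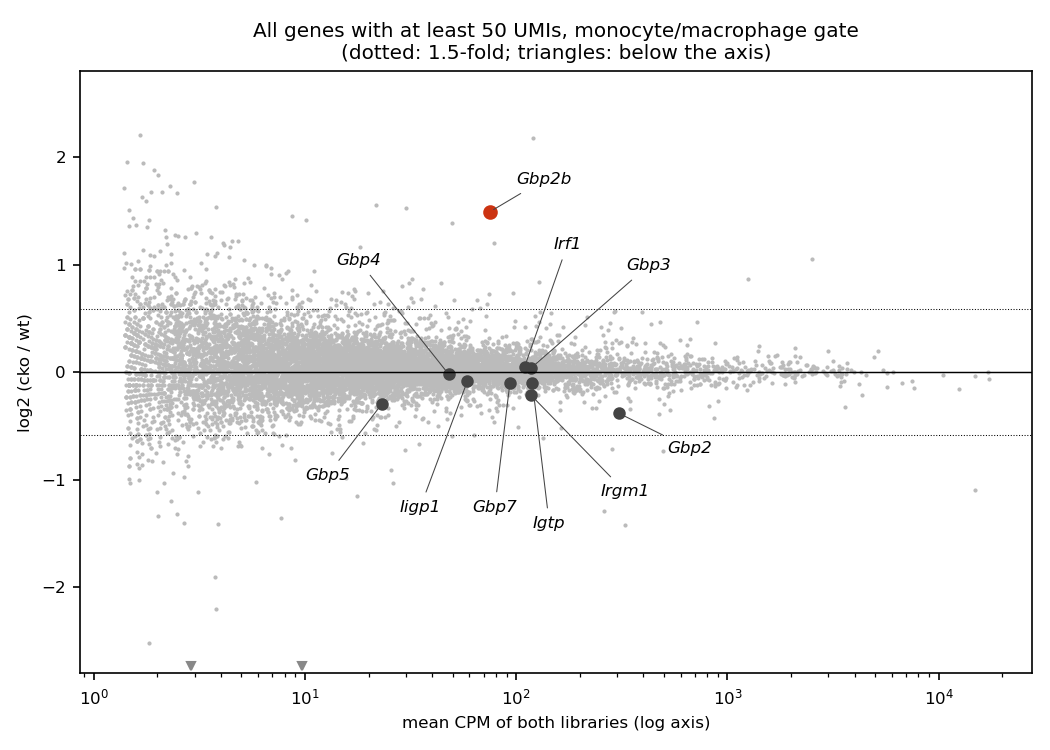
Log2 ratio of cko over wt (y axis) against the mean CPM of both libraries (x axis, log scale) for the 10288 genes with at least 50 UMIs in the monocyte/macrophage gate; each point is a gene, the 10 described genes are named, and 2 genes below the axis are drawn as triangles. Gbp2b sits at 1.49, above the dotted 1.5-fold line, and the other 9 lie between both dotted lines.

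Gbp2, the most abundant of the 10, went the other way. Its level was 347 CPM labelled wt against 266 CPM labelled cko (−0.38, −0.44 to −0.33), within 1.5-fold, and 3.11% of the genes measured had ratios at or below −0.38. The ratio was −0.54 with the revised gates, which return to this gate the cells that the first NK and granulocytic gates had taken. In the transitional gate the sign was opposite (0.24, 0.09 to 0.39). Gbp5, which promotes assembly of the NLRP3 inflammasome, was the least abundant, with 25.5 and 20.8 CPM (−0.29, −0.49 to −0.09). Irgm1, an IRG that regulates other family members and autophagy, was at 126 and 109 CPM (−0.21, −0.30 to −0.12).

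The remaining members differed less. Igtp, also named Irgm3, was at 123 and 115 CPM (−0.10), and Gbp7 at 96.6 and 90.0 CPM (−0.10). Iigp1, an effector IRG that coats parasite vacuoles, was at 60.3 and 57.0 CPM (−0.08, −0.21 to 0.04). Gbp4 was at 48.3 and 47.6 CPM (−0.02, −0.16 to 0.12) and Gbp3 at 116 and 119 CPM (0.04, −0.05 to 0.13). Irf1 was at 108 and 111 CPM (0.05, −0.04 to 0.14). The intervals of these last 4 include 0. The median ratio of the 9 genes other than Gbp2b was −0.10, against 0.04 over all genes measured, and the interval of Gbp2b overlapped none of theirs.

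Gbp2b had about the same ratio in each gate of monocytes and macrophages. In the monocyte gate it was at 54.3 CPM labelled wt and 154 CPM labelled cko (1.51, 1.28 to 1.73), where 4.31% of all genes measured were past 1.5-fold in either direction. In the transitional gate it was at 46.3 and 159 CPM (1.78, 1.44 to 2.13; all genes 6.89%). In the macrophage gate it was at 34.2 and 89.6 CPM (1.39, 1.18 to 1.61; all genes 5.45%). In the nonclassical gate it was at 36.4 and 100.5 CPM (1.47, 1.04 to 1.91; all genes 5.88%). The 4 intervals overlap each other. None of the other 9 genes was past 1.5-fold in any of these 4 gates, and none of their intervals reached that of Gbp2b. Intervals below 0 were found for Gbp2 in the monocyte, macrophage and nonclassical gates. Gbp5 (−0.38, −0.72 to −0.04) and Gbp7 (−0.19, −0.38 to −0.01) had such intervals in the monocyte gate. Irgm1 had them in the macrophage (−0.28, −0.44 to −0.13) and nonclassical gates (−0.35, −0.64 to −0.07). Intervals above 0 were found for Gbp3 in the macrophage gate (85.7 and 105 CPM; 0.30, 0.15 to 0.45) and in the transitional gate (141 and 172 CPM; 0.29, 0.04 to 0.53), for Gbp2 in the transitional gate, and for Iigp1 in the monocyte gate (39.4 and 49.1 CPM; 0.32, 0.01 to 0.63).

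**Figure D2:**
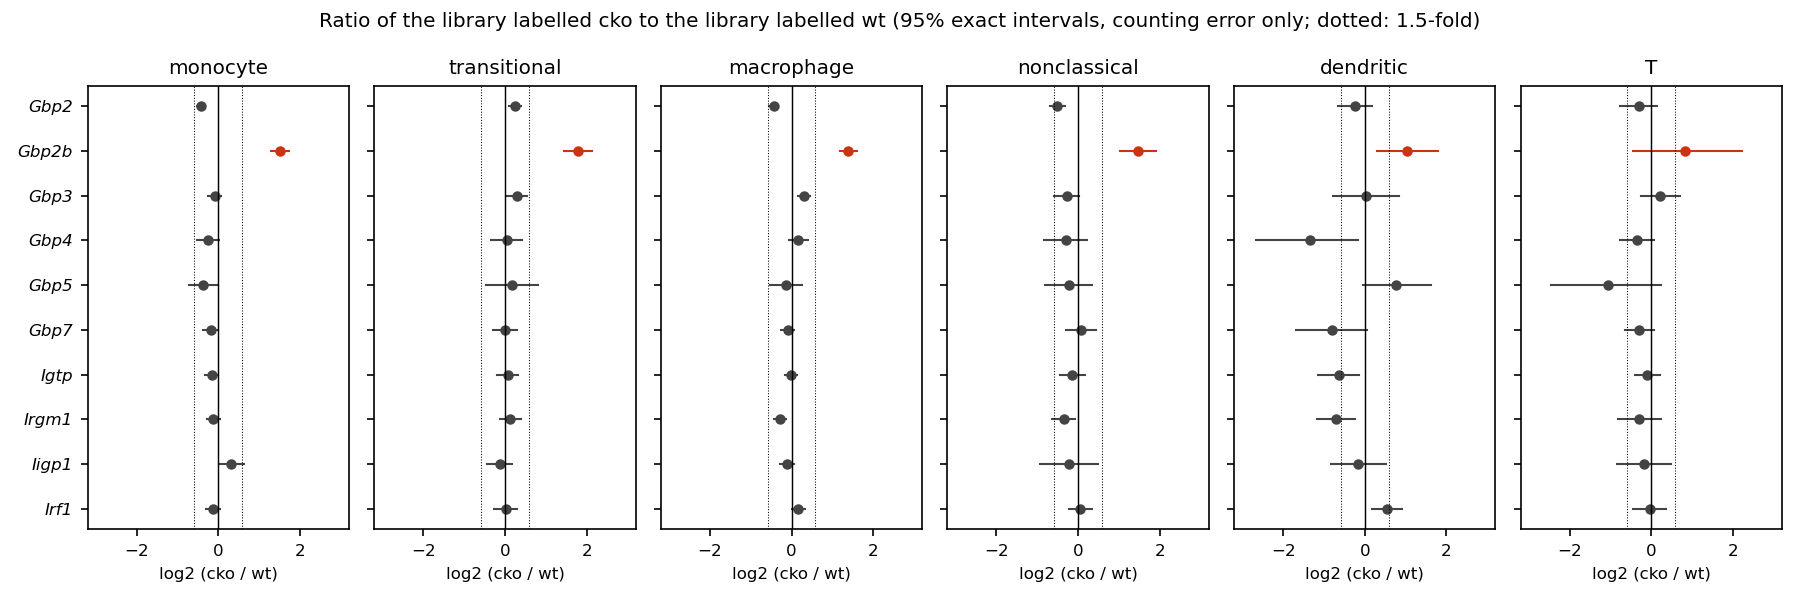
Log2 ratio of cko over wt (x axis) for the 10 genes (y axis) in 6 gates; points are ratios, bars are exact 95% intervals for counting error, and dotted lines mark 1.5-fold. Gbp2b (red) lies between 1.39 and 1.78 in the monocyte, transitional, macrophage and nonclassical gates, and its interval includes 0 in the T gate.

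The share of cells with Gbp2b moved in the same direction. After every cell was thinned to 3000 UMIs, 7.21% of monocyte/macrophage cells labelled wt (6.04 to 8.53, Clopper-Pearson interval) and 14.4% of those labelled cko (12.9 to 16.1) held a Gbp2b UMI. Without thinning the shares were 12.9% and 24.1%. T cells, at medians of 5775 and 6802 UMIs against 8321 and 8241, gave 2.22% (0.461 to 6.36) and 3.59% (1.33 to 7.66) after thinning.

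Gbp2b was lower in the T and NK gates than in the macrophage gate, while the interval of the dendritic gate overlapped that of the macrophage gate. In the dendritic gate it was at 38.5 CPM labelled wt (24 UMIs) and 78.3 CPM labelled cko (53 UMIs; 1.02, 0.30 to 1.78). In the T gate it was at 7.83 CPM (8 UMIs) and 13.8 CPM (19 UMIs), with an interval that includes 0 (0.82, −0.44 to 2.22). Free RNA from macrophages, read from Apoe, Ms4a7 and Lgmn, could give up to 1.42 and 4.45 CPM of these. The NK gate held 1 Gbp2b UMI in each library and the granulocytic gate 0 and 3, where 0 of 76897 UMIs allows up to 48.0 CPM, above the macrophage level labelled wt, so that no order can be read for granulocytic cells labelled wt. For T and NK cells together the ratio was 0.81 (−0.39 to 2.13). Under the gates as first set, where most NK-gated cells held monocyte/macrophage marker UMIs, it was 0.59 (0.21 to 0.97) at 38.2 and 57.4 CPM.

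The order of the gates differed little between the libraries. Gbp2b labelled wt was highest in the monocyte gate, followed by the transitional (46.3 CPM, 37.6 to 56.4), dendritic, nonclassical and macrophage gates, and each neighbouring pair had overlapping intervals. Labelled cko, the transitional gate (140 to 180 CPM) and the monocyte gate (143 to 167 CPM) overlapped each other and stood above the nonclassical (85.7 to 117), macrophage (83.4 to 96.1) and dendritic gates (58.6 to 102). T and NK cells were at or near the bottom in both.

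**Figure D3:**
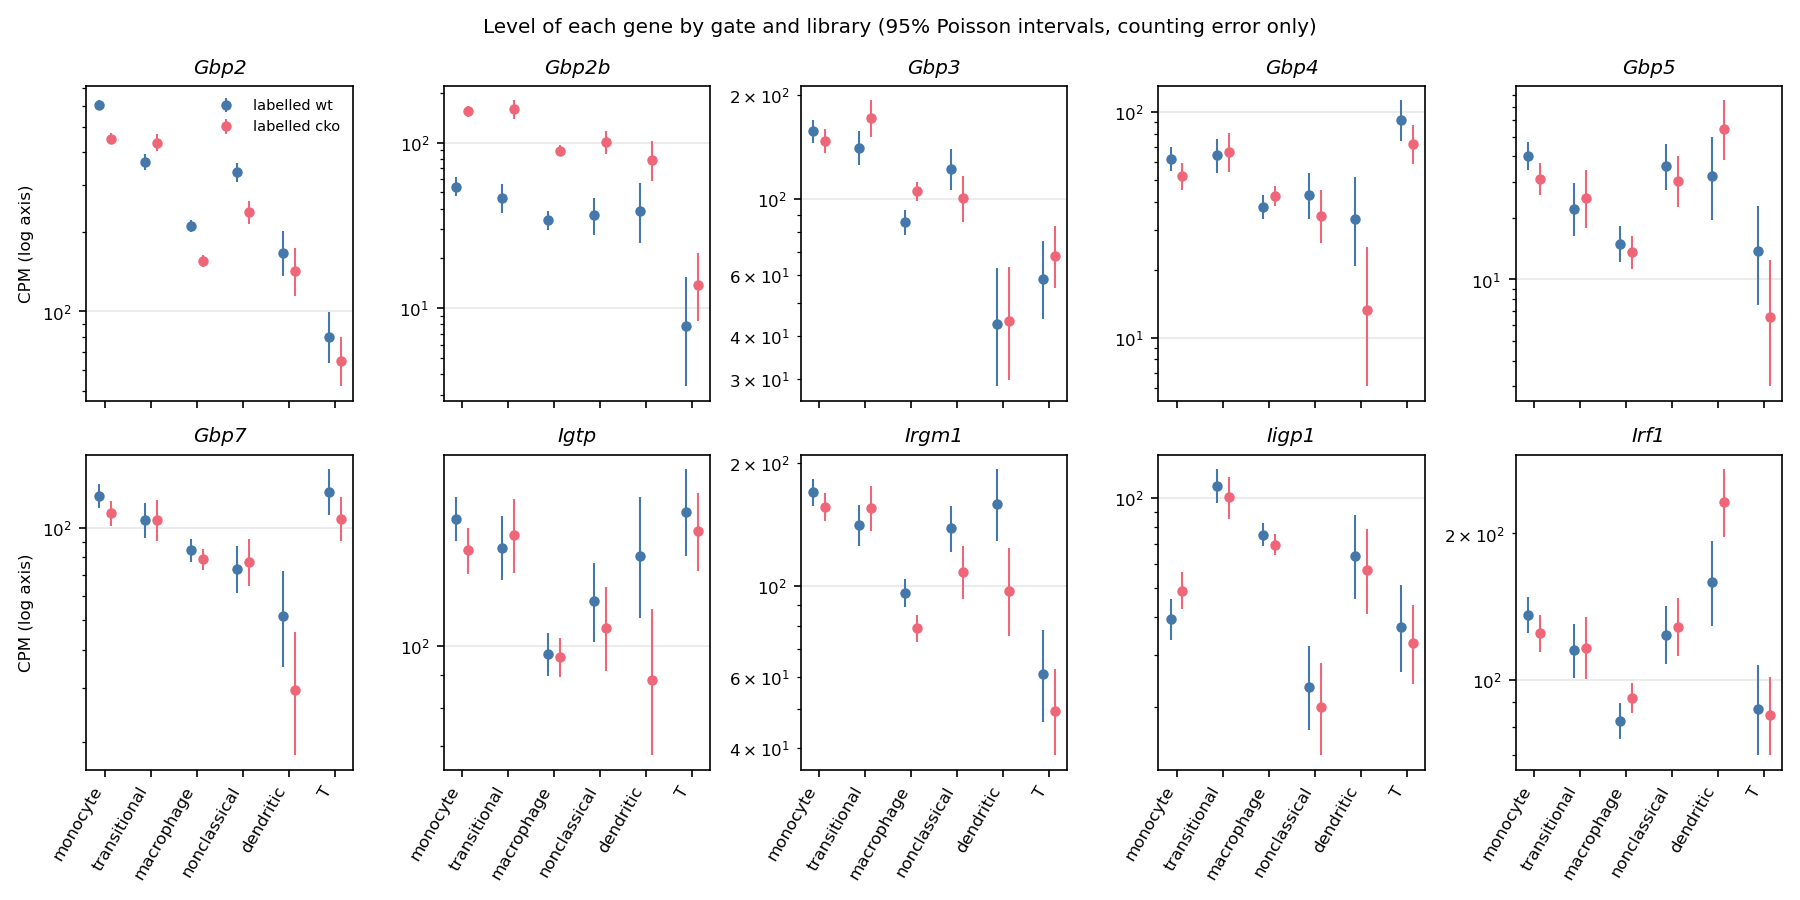
Level of each of the 10 genes in CPM (y axes, log scale, a range of its own per panel) in 6 gates (x axis), with blue for labelled wt, red for labelled cko, and bars for 95% Poisson intervals. For Gbp2b the red points stand above the blue ones without overlap in the monocyte, transitional, macrophage and nonclassical gates, and for Gbp2 the blue points are higher in the monocyte, macrophage and nonclassical gates.

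Most of the genes were lower in the macrophage than in the monocyte gate, in both libraries. Of the 10 genes, 9 were higher in the monocyte than in the macrophage gate in each library, with a median log2 ratio over the 10 of 0.72 labelled wt and 0.53 labelled cko. Of all genes with at least 50 UMIs, 42.5% labelled wt and 41.2% labelled cko were higher in the monocyte gate, with medians of −0.09 and −0.11. Gbp2 had the steepest step, from 606 CPM in the monocyte gate to 211 CPM in the macrophage gate labelled wt (log2 1.52, 1.43 to 1.62), and from 451 to 156 CPM labelled cko (1.53, 1.43 to 1.64). Gbp5 was next, with steps of 1.43 and 1.19. Gbp2b was 1.59-fold higher in the monocyte gate labelled wt and 1.72-fold higher labelled cko. The smallest of the 9 steps was that of Gbp7 labelled wt (0.59). Labelled cko it was that of Gbp4 (0.29, 0.04 to 0.54), followed by Irf1 (0.44), Gbp3 (0.49) and Gbp7 (0.50).

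Iigp1 was the exception. It was at 39.4 CPM in the monocyte gate and 75.4 CPM in the macrophage gate labelled wt (−0.94, −1.20 to −0.68), and at 49.1 and 69.7 CPM labelled cko (−0.51, −0.75 to −0.27). Its highest level was in the transitional gate, 110 and 100.3 CPM, and its lowest level among monocytes and macrophages was in the nonclassical gate, 23.5 and 20.1 CPM. All 10 genes were higher in the transitional than in the macrophage gate in both libraries (medians 0.55 and 0.67), against 44.5% and 43.2% of all genes (medians −0.04 and −0.07).

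In the T gate several members were near or above their monocyte level. Igtp was highest in the T gate among the gates of each library, 162 and 151 CPM, against 158 and 141 CPM in the monocyte gate, with overlapping intervals in both libraries. Gbp7 was at 131 and 107 CPM in the T gate, against 127 and 111 CPM in the monocyte gate. Gbp4 was higher in the T gate, at 92.1 and 72.1 CPM, than in the monocyte gate, at 61.9 and 52.0 CPM. Its log2 ratio of monocyte over T gate was −0.57 (−0.92 to −0.21) labelled wt and −0.47 (−0.82 to −0.11) labelled cko. Gbp2, by contrast, was at 80.3 and 64.8 CPM in T cells, far under its monocyte level, and Gbp5 at 13.7 and 6.56 CPM. Free RNA from macrophages, read as for Gbp2b, could give up to 4.67 and 5.21 CPM of Igtp, 3.39 and 3.92 CPM of Gbp7, 2.03 and 2.21 CPM of Gbp4, 12.8 and 10.7 CPM of Gbp2, and 0.977 and 0.926 CPM of Gbp5 in this gate. Of the 8 members with at least 50 UMIs in the T gate, 0 were past 1.5-fold between the libraries, where 8.55% of all genes were.

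The dendritic gate differed by gene. Irf1 was at 159 CPM labelled wt and 232 CPM labelled cko there (0.55, 0.17 to 0.92), against 136 and 125 CPM in the monocyte gate. Labelled wt the intervals of both gates overlap (129 to 193 and 125 to 148 CPM). Labelled cko the dendritic gate stood higher (197 to 271 and 114 to 136 CPM). Of 9 members with at least 50 UMIs, 5 were past 1.5-fold, against 15.2% of all genes in this small gate. Gbp2b and Gbp5 (32.1 and 54.7 CPM; 0.77, −0.05 to 1.63) were 2 higher ones, against 8.59% of all genes. Irgm1 (159 and 97.5 CPM; −0.70, −1.18 to −0.24), Igtp (138 and 88.6 CPM; −0.64, −1.14 to −0.15) and Gbp7 (51.4 and 29.5 CPM; −0.80, −1.68 to 0.05) were 3 lower ones, against 6.61%. The makeup of the gate also moved, with Ccr7, a marker of migratory dendritic cells, at 515 and 1363 CPM, and Xcr1, a marker of cross-presenting ones, at 167 and 99.0 CPM. Cells of this gate could also hold monocyte/macrophage marker UMIs, and 40.9% and 31.8% of those in the gate as first set held 3 or more. Fcgr1 was at 114 and 45.8 CPM in the revised gate and Ly6c2 at 130 and 56.1 CPM, while Csf1r was at 81.85 and 96.01 CPM. The part of either in these ratios was not tested.

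The summed level of Gbp2b and its neighbour Gbp2, which encode closely related proteins, was looked at after the single values were seen. It was 386 CPM labelled wt and 377 CPM labelled cko in the monocyte/macrophage gate (−0.03, −0.08 to 0.02), and 245 CPM in both libraries in the macrophage gate. Gbp2b made up 10.2% of that sum labelled wt (9.47 to 11.0) and 29.4% labelled cko (28.3 to 30.5). In the transitional gate the sum was higher labelled cko, at 415 and 595 CPM (0.52, 0.39 to 0.66), and in the monocyte gate it was lower, at 660 and 605 CPM (−0.12, −0.20 to −0.05). Of all windows of 98 bases, the length of the sequenced read, in annotated transcripts (GENCODE M21), 1 of 2726 in Gbp2b also occurred in Gbp2. Shared windows were more frequent for Gbp7 (10.1%, with Gbp3 and an unnamed gene model) and Igtp (5.35%, with Irgm2).

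Within 1 Mb of Gbp2b, 8 other genes had at least 50 UMIs in the monocyte/macrophage gate. Of these, 0 were past 1.5-fold, which with 4.17% over all genes is near the background share. Farther along the chromosome, Ifi44l (1.52) and Ifi44 (1.39) had ratios close to that of Gbp2b, with 9.17 Mb from the start of Gbp2b to the end of Ifi44l. Gtf2b, a general transcription factor, was at 68.2 and 65.5 CPM (−0.06), Pkn2, a kinase, at 31.8 and 29.4 CPM (−0.11), and Pdlim5 at 31.6 and 33.2 CPM (0.07). Ccbl2, at 5.07 and 6.09 CPM, had the highest ratio of the 8 (0.27, −0.15 to 0.69).

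**Figure D4:**
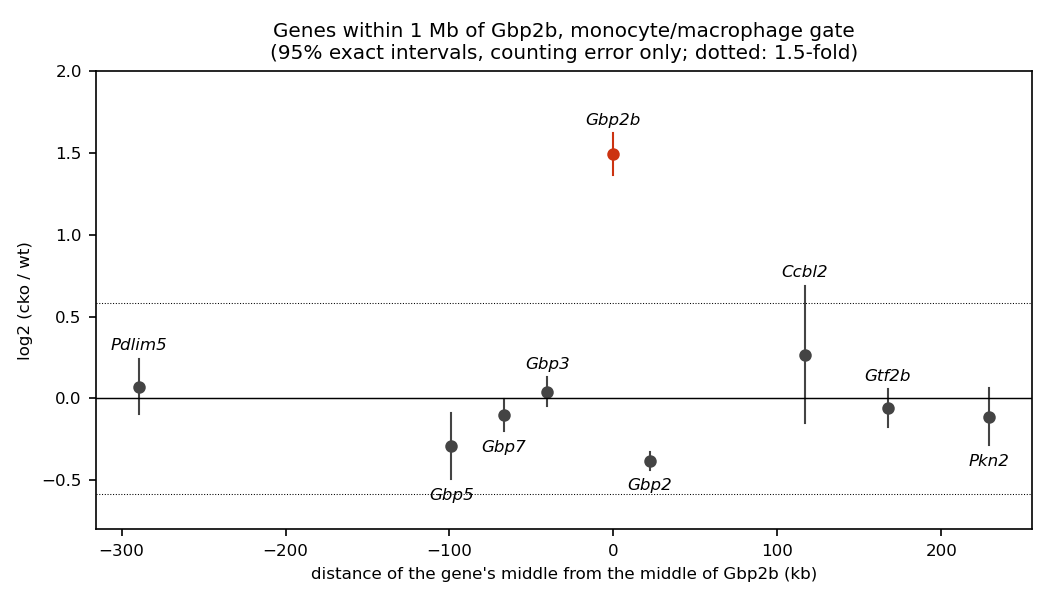
Log2 ratio of cko over wt in the monocyte/macrophage gate (y axis) against the distance in kb from the middle of Gbp2b to the middle of each gene within 1 Mb with at least 50 UMIs (x axis); bars are exact 95% intervals for counting error. Gbp2b (red) is at 1.49 and the 8 neighbours lie between −0.38 and 0.27.

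Cells with more of the other 9 genes more often held Gbp2b, in both libraries. Cells of the monocyte/macrophage gate were binned by their summed UMIs of the other 9 genes, each cell thinned to 3000 UMIs. Labelled wt, Gbp2b was found in 3.79% of 396 cells without such a UMI, in 2.91% of 652 cells with 1 or 2, and in 18.5% of 124 cells with 11 or more (12.1 to 26.5). Labelled cko, the shares were 5.54% of 505 cells and 39.3% of 117 cells (30.4 to 48.8). The intervals of both libraries overlap in cells without such UMIs and do not overlap in any of the other 4 bins, where the shares with 1 or 2 such UMIs were already 2.91% (1.76 to 4.51) and 9.80% (7.72 to 12.2). In the monocyte gate alone the shares ran from 6.17% (2.03 to 13.8) in the lowest bin to 19.3% with 6 to 10 such UMIs and 14.8% (6.62 to 27.1) with 11 or more labelled wt, and from 5.10% to 38.5% and 30.4% labelled cko, so the highest bin was not the peak and, labelled wt, overlapped the lowest. In the macrophage gate they ran from 3.57% to 15.0% and from 7.34% to 58.3%, where the highest bins hold 20 and 24 cells. Labelled wt the highest macrophage bin (3.21 to 37.9) was likewise not the peak, with 15.8% at 6 to 10 such UMIs, and overlapped the lowest (1.17 to 8.14).

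**Figure D5:**
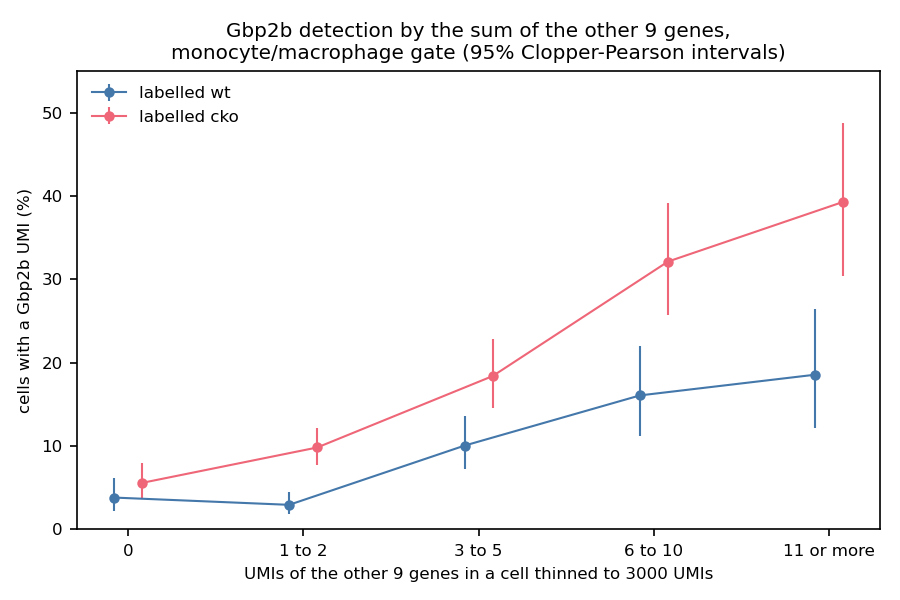
Share of monocyte/macrophage cells with a Gbp2b UMI (y axis, percent) by the summed UMIs of the other 9 genes in the same cell (x axis, bins), after thinning to 3000 UMIs, for cells labelled wt (blue) and labelled cko (red), with 95% Clopper-Pearson bars. The shares run from 3.79% in the lowest bin to 18.5% in the highest labelled wt, and from 5.54% to 39.3% labelled cko.

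Each of the 9 genes other than Gbp2 was also found more often in cells with a Gbp2 UMI than in cells without, in both libraries. The same was true of 46.6% (labelled wt) and 43.6% (labelled cko) of all genes found in at least 50 thinned cells of the monocyte/macrophage gate. Within the monocyte gate, 6 members labelled wt and 7 labelled cko were found in that many cells, and each was more frequent with Gbp2, against 45.5% and 45.2% of all genes. Within the macrophage gate it was 6 of 6 and 8 of 8, against 49.5% and 48.2%. The ratio of shares was largest for Gbp5 labelled wt (15.2% against 2.86%, 5.32-fold) and for Iigp1 labelled cko (14.8% against 3.92%, 3.76-fold), and smallest for Irf1 (1.48-fold and 1.41-fold). For Gbp2b it was 2.55-fold labelled wt and 2.29-fold labelled cko.

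Monocyte-gated cells were next ranked by their summed UMIs of 11 type I interferon-stimulated genes, and those at or below the 25th percentile (the low cells) were set against those at or above the 75th (the high cells). Between low and high cells, the 9 genes other than Gbp2b were 1.91-fold (Irf1) to 11.7-fold (Iigp1) higher labelled wt, and 1.89-fold (Irf1) to 9.19-fold (Iigp1) higher labelled cko. Of all genes with at least 50 UMIs in these cells, the 11 left out, 42.6% and 41.5% were higher in the high cells. Gbp2b went from 37.6 to 59.7 CPM labelled wt, 1.59-fold with an interval that includes 0 on the log2 scale (0.67, −0.24 to 1.58), on 21 and 24 UMIs. Labelled cko it went from 67.4 to 294 CPM, 4.37-fold (2.13, 1.58 to 2.70). The ratio between the libraries was 0.84 (0.04 to 1.68) in the low cells and 2.30 (1.65 to 3.01) in the high cells, and the intervals overlap slightly. Ifi44, which itself differed between the libraries, is 1 of the 11 genes. Without it the ratios were 1.18 (0.42 to 1.99) and 2.20 (1.52 to 2.93).

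Other genes of the pathway were read in the monocyte/macrophage gate, where 4.17% of all genes were past 1.5-fold, so that a count of 0 in a short list is near the background. Of the other GTPases, 9 of 15 listed genes had at least 50 UMIs, 2 higher and 7 lower labelled cko, and 0 were past 1.5-fold (median −0.14). The 2 most abundant were Ifi47, an IRG, at 253 and 230 CPM (−0.14), and Gbp8 at 63.1 and 52.9 CPM (−0.25). In the monocyte gate alone, 3 of 7 were past 1.5-fold, all lower labelled cko (median −0.47), against 4.31% of all genes. They were Gbp8 at 37.7 and 22.9 CPM (−0.72, −1.10 to −0.34), Gm4951 at 11.3 and 5.92 CPM (−0.93, −1.70 to −0.19) and Tgtp2 at 13.7 and 9.12 CPM (−0.59, −1.23 to 0.04). In the macrophage gate 0 of 7 were past 1.5-fold (median −0.06), against 5.45% of all genes. Of 20 genes of the interferon gamma pathway, 6 were higher and 14 lower (median −0.05). Past 1.5-fold was Nos2, the inducible nitric oxide synthase, at 3.06 and 2.01 CPM, with an interval that includes 0 (−0.61, −1.25 to 0.03).

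Ifngr1, the ligand-binding chain of the interferon gamma receptor, was at 599 and 666 CPM (0.15), and B2m and Psmb8, the most abundant of that list, had ratios of −0.10 and −0.01. Ifng itself, read in the T gate, was at 525 CPM labelled wt and 274 CPM labelled cko (−0.94, −1.13 to −0.75). These UMIs came from a minority of the T cells, and the interval does not cover differences between cells. The share of T cells with an Ifng UMI ran the other way. It was 20.7% (14.2 to 28.6) and 25.8% (19.3 to 33.1) after thinning, and 29.6% and 40.7% without. The thinned intervals overlap, so no order is read from the share. In the NK gate the level of Ifng was higher labelled cko on few UMIs, with 25.2 CPM (9 UMIs) against 73.4 CPM (27 UMIs; 1.54, 0.41 to 2.81). Of 14 partners in autophagy and inflammasomes, 0 were past 1.5-fold against 4.17% of all genes (median −0.02), and the most abundant, Gabarap and Map1lc3b, had ratios of −0.09 and 0.00. Of the 11 type I interferon-stimulated genes, 10 had ratios from −0.24 to 0.01. Ifi44 was past 1.5-fold, at 27.4 and 71.7 CPM (1.39, 1.23 to 1.54). In the macrophage gate alone, 9 of the 11 were lower labelled cko (median −0.36), and besides Ifi44 (1.18) 2 were past 1.5-fold, against 5.45% of all genes. These were Usp18 at 31.2 and 19.7 CPM (−0.66, −0.96 to −0.36) and Cmpk2 at 14.2 and 8.43 CPM (−0.76, −1.22 to −0.30). In the monocyte gate 9 of the 11 were also lower (median −0.17), and Ifi44 (1.83) alone was past 1.5-fold, against 4.31% of all genes.

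Over the 16 sums of 8 gates in 2 libraries, the genes whose log2 level followed Gbp2b most closely among 5983 genes with at least 500 UMIs were Ifi44l (Pearson r 0.93), Tmem55b, Tdrd7, Scarb1 and Fech, all at 0.93. For Gbp2 they were Timm10b (0.97), Sap30, Ly6i, Irgm1 and Ptpro, and Irgm1 (0.93) is the member among them. Of pairs within the 10 genes, Gbp2 with Irgm1 and Gbp3 with Gbp7 (0.89) were the most alike. The points share their libraries and the gates' depth, so these values describe likeness and carry no test. In the NK and granulocytic gates the points of Gbp2b rest on between 0 and 3 UMIs, and their weight in r was not tested.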

How the data were processed

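Sorted CD45+ cells of 2 libraries were profiled with the 10x Genomics 3′ kit, version 2. The authors deposited UMI counts per gene and called cell, unnormalized, for mm10. Per the labels Cell Ranger and Seurat were used, with versions not given in the sources used here. The total was 24492486 UMIs labelled wt and 27163485 labelled cko, and 5 cell barcodes occur in both.

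A cell was kept if it had 200 genes or more and no more than 10% mitochondrial UMIs (4 and 14 left out). Scrublet's automatic threshold marked 0.136% of cells, too few to have worked, so the 48 and 59 highest-scoring cells were removed (1.96% and 2.17%, by loading). Cells were gated on raw marker UMIs: T (Cd3d, Cd3e, Cd3g, at least 2), NK (at least 2), dendritic (at least 3), granulocytic (at least 4) and monocyte/macrophage (at least 3 UMIs over Csf1r, Fcgr1, Adgre1 and another marker that is not reported here). Cells of several lineages were left out. Of monocyte/macrophage cells, 6.57% and 7.03% lay near the C1q cut. The T, NK and granulocytic gates, and through the exclusion of mixed cells the dendritic gate, were revised after seeing the data: Klrk1 was dropped from the NK markers and Csf3r and Mmp9 from the granulocytic markers, and T, NK and granulocytic cells had under 3 monocyte/macrophage marker UMIs. The revision would return 237 and 225 cells to the monocyte/macrophage gate, which was kept as first set.

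UMIs were summed per gate and library (CPM). Ratios have exact conditional binomial intervals, levels Poisson intervals and shares Clopper-Pearson intervals, all 95% and for counting error only. A gene counted as past 1.5-fold with at least 50 UMIs over both libraries. The functions were tested on simulated data. The 10 genes, the lists and the rules were chosen with earlier results of these data known. From each list the text names the genes past 1.5-fold and the 2 most abundant, and other genes of a list (Ifngr1, Ifng) and genes named from the monocyte, macrophage or NK gates were chosen after their values were seen. Likeness was Pearson's r of log2(CPM + 1). Tools were Python 3.11.15, scanpy 1.11.5, numpy 2.4.6, scipy 1.17.1, pandas 2.3.3, matplotlib 3.10.9, and edgeR 4.0.16 under R 4.3.3 for TMM factors alone.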

Additional observations from a re-analysis of the deposited data

Results flagged for a closer look

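Gbp2 was flagged because its ratio between the libraries had opposite signs in gates of the same lineage, with intervals that exclude 0. In the transitional gate its level was 368 CPM labelled wt and higher, 436 CPM, labelled cko (log2 ratio 0.24, 0.09 to 0.39). It was lower labelled cko in the monocyte gate (−0.42, −0.51 to −0.34), in the macrophage gate at 211 and 156 CPM (−0.44, −0.55 to −0.33) and in the nonclassical gate at 337 and 238 CPM (−0.51, −0.70 to −0.32). The transitional gate held 182 and 143 cells. The intervals cover counting error only, and the difference between gates was not tested.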

How the results depend on the processing

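With 1 library per genotype, no replicate could be left out. No paired analysis was possible because the labels give no replicate numbers and each genotype is 1 library. The ratio of Gbp2b and the median of the other 9 genes in the monocyte/macrophage gate, on which the C1q cut cannot act, the ratio of Gbp2b in lymphoid cells as first gated (0.59, monocytes included), and the step from monocytes to macrophages kept their direction and moved by less than their counting intervals under the alternatives tried, which were 5 or 20 C1q UMIs as the cut, no doublet removal, means over cells, TMM scaling (a shift of −0.04 in the monocyte/macrophage gate), thinning, a 5% mitochondrial limit, and leaving out the cell with the most UMIs. For medians, the interval used was that of the middle gene or the mean limits of the middle pair, not an interval of the median. Revised gates were added after seeing the data. Under them the lymphoid ratio of Gbp2b was 0.81 with an interval that includes 0 (−0.39 to 2.13), and the other alternatives were not run on that value. The other 3 results moved by less than their intervals. The number of genes past 1.5-fold in the monocyte/macrophage gate, 429, was 1070 after thinning to 3000 UMIs, 1242 with a minimum of 10 UMIs and 58 with a minimum of 500. For single genes, the C1q cut aside, 60 of 63 values stayed within their intervals. The other 3 were Gbp2 (−0.38, and −0.54 under the revised gates) and Iigp1 (−0.08, and −0.22 under the revised gates and 0.14 after thinning). The cause was not tested. Depth limits the NK and granulocytic gates, where Gbp2b had between 0 and 3 UMIs.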

Other observations

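Genes with ratios like that of Gbp2b in the monocyte/macrophage gate were listed after the ratios were seen. The 4 genes with at least 500 UMIs at or above its ratio were Lyz1, a lysozyme gene on chromosome 10 (43.5 and 197 CPM, log2 ratio 2.18), the gene model Gm5900 on chromosome 7 (11.0 and 32.4 CPM, 1.56), Ifi44l on chromosome 3 (15.4 and 44.4 CPM, 1.52, 1.32 to 1.73) and Gbp2b. Ifi44 lies beside Ifi44l (1.39). Gm5900 was higher labelled cko in the T gate as well (1.24, 0.27 to 2.31), while Ifi44 and Ifi44l had 9 and 4 UMIs there over both libraries.

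The stretch of chromosome 3 from Gbp2b to Ifi44l covers 9.17 Mb. Of 22 genes in it with at least 50 UMIs, 3 were past 1.5-fold higher labelled cko, and these were Gbp2b, Ifi44 and Ifi44l. The share was 13.6%, against 4.44% of 495 genes on chromosome 3 and 3.13% of all genes with a position. The median ratio of the 22 genes was 0.01. The ends of the stretch were set by the genes themselves, so the share carries no test.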
